A study of Mus musculus with 2 samples.

Results

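The genes described here are 10 members of the tumour necrosis factor (TNF) receptor superfamily, namely Tnfrsf1a, Tnfrsf1b, Tnfrsf4, Tnfrsf9, Tnfrsf10b, Tnfrsf18, Tnfrsf25, Tnfrsf26, Cd27 and Fas. They were chosen by name, and every probe set that the platform annotation assigns to 1 of these genes alone was taken. This gave 13 probe sets for 9 of the 10 genes, out of 45037 probe sets and 18193 named genes. Tnfrsf26 was matched to no probe set in the annotation used here and was not analysed. On such arrays a transcript is read by a group of short probes, the probe set, which is reduced to a single signal.

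CD4 T cells from the spleen of wild type C57BL/6 mice, sorted magnetically to a purity above 98%, were stimulated through the T cell receptor and CD28 for 2 days and grown for 3 more. The CD103+ Th1 culture received IL-4 (3 ng/ml), IFN-γ (10 ng/ml) and TGF-β (3 ng/ml). The Th1 culture received IL-12 (1 ng/ml) and the anti-IL-4 antibody 11B11 (1 µg/ml). Each culture gave total RNA for 1 Affymetrix array, so there was 1 array per group, no replicate check, and neither a test nor a p-value. The number of mice behind each culture is not in the labels, and 1 signal cannot tell fewer expressing cells from less RNA per cell.

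TNF receptors are membrane proteins with cysteine-rich repeats outside the cell that bind trimeric ligands of the TNF family. One class carries a death domain in the cytoplasm and can start apoptosis through the adaptor FADD and caspase-8. Many of the others lack that domain, recruit TRAF adaptors, activate NF-κB, and give activated T cells costimulatory and survival signals.

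All fold values below compare the CD103+ Th1 array with the Th1 array, and a log2 ratio above 0 means a higher signal in CD103+ Th1. Signals are in arbitrary units, and levels were not compared between probe sets. Low signals are dominated by background, so a floor was set at the median of all signals, 78.5. No ratio was formed where both arrays were under the floor, and where 1 array was, the ratio is a bound and is given as "at least". Both arrays had nearly the same median (78.0 in CD103+ Th1 and 78.8 in Th1). The median log2 ratio of all 11194 measured genes was -0.03. Itgae, the gene of CD103 itself, read 13248 in CD103+ Th1 against 82.1 in Th1. Among T cell markers, all 8 with a probe set lay above the floor, their median log2 ratio was 0.17, and Cd3e, at 3652 and 2721, differed most. Cd4 read 1081 and 973.

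Of the 9 receptor genes, Cd27 was the 1 gene higher by 2-fold or more in CD103+ Th1, and 0 genes were lower by 2-fold or more on their brightest probe set. Tnfrsf9, which encodes 4-1BB, came next to the threshold on the lower side, and 1 of its probe sets passed it. Fas was higher and Tnfrsf25 lower by less than 2-fold. Tnfrsf1a, Tnfrsf1b, Tnfrsf4 and Tnfrsf18 differed by less than 1.5-fold, and for Tnfrsf10b only a bound was had. Among all measured genes, 5.04% were higher by 2-fold or more and 4.87% lower by as much, so 1 of 9 receptor genes past 2-fold is close to the overall share of 9.91%. By probe set, 1 of 11 measured was higher by 2-fold or more and 1 lower by as much, against 5.25% and 3.91% of all 24036 measured probe sets. The median log2 ratio of the 9 genes was -0.18, from -0.94 to 1.37, with 4 genes above 0 and 5 below. This median is the Tnfrsf10b bound itself, and it was -0.25 with the floor at the 25th percentile of all signals. Both arrays exceeded the floor for 8 of these 9 genes, and Tnfrsf10b passed it in Th1 only.

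**Figure D1:**
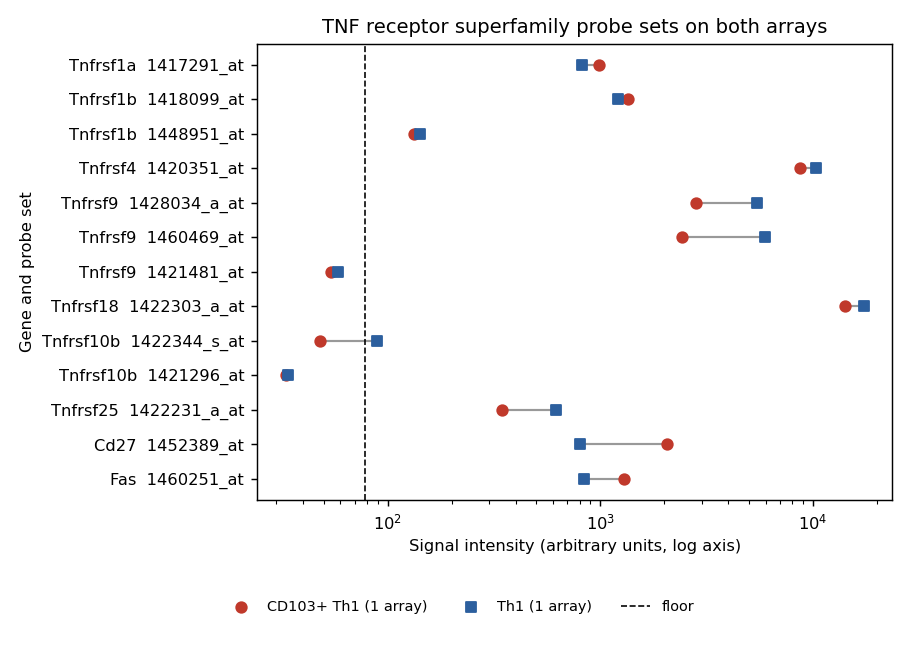
Signal intensity (arbitrary units, log axis) of the 13 receptor probe sets on the CD103+ Th1 array (circles) and the Th1 array (squares), joined by a line per probe set; the dashed line is the floor of 78.5. The widest gaps above the floor are those of Cd27, with CD103+ Th1 on the right, and of the bright Tnfrsf9 probe sets, with Th1 on the right.

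Cd27 encodes a costimulatory receptor of naive, memory and regulatory T cells that binds CD70. Its only probe set, 1452389_at, had a signal of 2070 in CD103+ Th1 and 800 in Th1, which is 2.59-fold higher (log2 ratio 1.37). A ratio at least as high was found in 2.39% of measured genes, and in 2.80% of the 8114 genes whose brighter signal reached 4 times the floor. Both signals lay far above the floor, and the log2 ratio stayed between 1.34 and 1.39 under the other scalings, floors and probe set choices. With 1 probe set, no second was at hand to compare, and the probe set choices could not change the ratio. Nor could the floors, which both signals exceeded.

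The start region of Cd27 is printed because this gene had the highest ratio of the 9 receptor genes, and it can be set beside those of Tnfrsf9 and Fas further on. Each sequence is the RefSeq window of GRCm38.p6 from 250 bases before to 50 bases after a transcript start, in the direction of transcription, and capitals mark matches to the motifs searched. Searched on both strands were the AP-1 site, TGANTCA, and the interferon-γ activated site (GAS), TTCNNNGAA. The other motifs were the interferon response element, GAAANNGAA, the SMAD palindrome, GTCTAGAC, and the consensus of NF-κB. The GATA site was searched as AGATAA. In the Cd27 window, chr6:125236978-125237277 on the minus strand, these motifs had no match:
Cd27: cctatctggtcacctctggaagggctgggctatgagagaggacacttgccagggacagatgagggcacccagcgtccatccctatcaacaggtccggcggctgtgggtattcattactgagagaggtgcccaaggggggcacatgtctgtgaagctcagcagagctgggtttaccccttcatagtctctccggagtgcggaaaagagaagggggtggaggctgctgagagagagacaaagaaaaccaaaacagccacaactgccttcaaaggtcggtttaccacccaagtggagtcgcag

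Tnfrsf9 encodes 4-1BB (CD137), a receptor induced on T cells by activation that recruits TRAF adaptors and promotes survival. It was lower in CD103+ Th1 on both bright probe sets. Probe set 1428034_a_at read 2832 in CD103+ Th1 against 5432 in Th1, 1.92-fold lower (log2 ratio -0.94). Probe set 1460469_at had 2413 and 5933, 2.46-fold lower (log2 ratio -1.30). The direction was thus shared, while the 2-fold threshold fell between the log2 ratios of the probe sets. The third probe set, 1421481_at, lay under the floor on both arrays, at 54.1 and 58.6, and received no ratio. A log2 ratio of -0.94 or lower was found in 5.51% of measured genes. With the mean of both bright probe sets the log2 ratio of Tnfrsf9 was -1.12, past 2-fold.

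Tnfrsf9 is shown because it had the lowest ratio of the 9 receptor genes, and because its transcript starts differ in their motifs. The first window, chr4:150919905-150920204 on the plus strand, held no match. The second, chr4:150927749-150928048 on the plus strand, held a GAS match, overlapping NF-κB matches and an AP-1 match, in that order:
Tnfrsf9 first start: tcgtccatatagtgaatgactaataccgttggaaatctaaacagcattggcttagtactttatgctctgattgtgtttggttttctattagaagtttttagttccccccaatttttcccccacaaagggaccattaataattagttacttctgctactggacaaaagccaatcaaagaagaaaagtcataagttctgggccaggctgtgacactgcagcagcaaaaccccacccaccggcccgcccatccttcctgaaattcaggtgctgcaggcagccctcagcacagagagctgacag
Tnfrsf9 second start: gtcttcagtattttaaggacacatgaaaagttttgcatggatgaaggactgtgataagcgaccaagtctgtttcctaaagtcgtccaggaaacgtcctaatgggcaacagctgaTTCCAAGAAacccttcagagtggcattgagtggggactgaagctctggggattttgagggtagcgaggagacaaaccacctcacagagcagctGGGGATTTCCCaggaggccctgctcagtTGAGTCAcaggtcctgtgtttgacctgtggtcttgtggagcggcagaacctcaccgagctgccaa

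Among all 32851 windows of that length, 8.30% held a GAS match, 8.46% an NF-κB match and 7.81% an AP-1 match. Of the 10 windows of the receptor genes, which cover 8 genes, 6 held a GAS match, 2 an NF-κB match and 2 an AP-1 match. The interferon response element matched 2, those of Tnfrsf1b and Tnfrsf4, and 8.56% of all windows. The GATA and SMAD motifs matched 0 of the 10 windows, against 11.2% and 0.213% of all windows. The GAS matches lay in windows of Tnfrsf1a, Tnfrsf1b, Tnfrsf9, Tnfrsf18, Tnfrsf25 and Fas. These 6 genes had log2 ratios from -0.94 to 0.64, so windows with the motif belonged to genes on both sides of 0. A match is a string of letters and does not show binding.

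**Figure D2:**
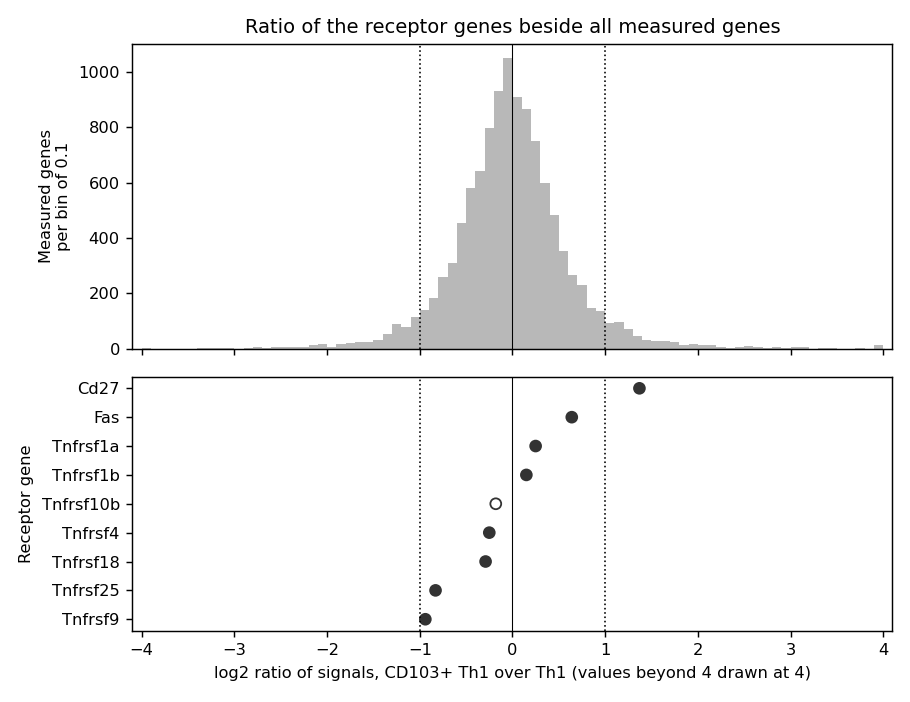
Top, number of measured genes per bin of 0.1 of the log2 ratio of signals (CD103+ Th1 over Th1); bottom, the log2 ratio of each receptor gene on its brightest measured probe set, with an open circle where 1 array lay under the floor and the value is a bound. Dotted lines mark 2-fold; Cd27 at 1.37 lies beyond the upper line and Tnfrsf9 at -0.94 just inside the lower line.

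The other costimulatory receptors differed little. Tnfrsf4 encodes OX40, which sustains the survival of activated CD4 T cells, and it read 8665 in CD103+ Th1 against 10327 in Th1, 1.19-fold lower. Tnfrsf18 encodes GITR, which is abundant on regulatory T cells, and its signals were 14111 and 17307, 1.23-fold lower. Both were bright on both arrays, and their log2 ratios of -0.25 and -0.29 lay where 31.0% and 28.3% of measured genes were as low or lower. Tnfrsf1b encodes TNFR2, the TNF receptor without a death domain. Its signals were 1344 and 1211 on probe set 1418099_at, 1.11-fold higher, and 133 and 142 on the dim probe set 1448951_at, 1.07-fold lower. The direction of Tnfrsf1b therefore depended on the probe set. The 5 costimulatory receptor genes, with Cd27 and Tnfrsf9, had a median log2 ratio of -0.25, with 2 above 0 and 3 below.

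The death domain receptors also went both ways. Fas, whose ligand triggers apoptosis of activated T cells, read 1300 in CD103+ Th1 against 837 in Th1, 1.55-fold higher (log2 ratio 0.64). A ratio at least as high was found in 11.1% of measured genes. Tnfrsf1a encodes TNFR1, the widely expressed receptor for soluble TNF, and its signals were 982 and 824, 1.19-fold higher. Tnfrsf25 encodes DR3, a death domain receptor that costimulates T cells when bound by TL1A. It read 346 in CD103+ Th1 against 618 in Th1, 1.78-fold lower (log2 ratio -0.83), and 7.09% of measured genes were as low or lower. With the floor at the 75th percentile of all signals, 472, which lies above its CD103+ Th1 signal, the log2 ratio of Tnfrsf25 was -0.39. Tnfrsf10b encodes the mouse receptor for TRAIL. It read 48.0 in CD103+ Th1 and 88.8 in Th1 on probe set 1422344_s_at, at least 1.13-fold lower, and 33.2 and 33.9 on 1421296_at, under the floor on both arrays. A receptor gene this close to the floor gives no firm ratio, and its log2 ratio became -0.89 when the floor was put at the 25th percentile. The 4 death domain genes had a median log2 ratio of 0.04, with 2 above 0 and 2 below. This median is the midpoint between the Tnfrsf1a ratio and the Tnfrsf10b bound, so it is no firmer than that bound.

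The Fas window, chr19:34290409-34290708 on the plus strand, is printed because Fas had the highest ratio of the 4 death domain receptors. It held an AP-1 match and a GAS match:
Fas: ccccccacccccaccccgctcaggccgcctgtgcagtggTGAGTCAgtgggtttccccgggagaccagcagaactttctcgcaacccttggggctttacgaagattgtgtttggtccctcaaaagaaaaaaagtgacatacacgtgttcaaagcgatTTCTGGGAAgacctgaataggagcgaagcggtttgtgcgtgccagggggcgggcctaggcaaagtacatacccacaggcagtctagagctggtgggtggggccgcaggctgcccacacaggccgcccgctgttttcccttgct

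Among the ligand genes of these receptors, Tnfsf9 passed 2-fold on the lower side and Tnfsf10 on the higher. Of 9 ligand genes listed, 7 had a named probe set, of which 1 was lower and 1 higher by 2-fold or more. On the log2 scale 6 of the 7 were below 0 (median -0.64), with Fasl and Tnf close to 0, and the median was -0.14 with the floor at the 75th percentile. Tnfsf9, which encodes the 4-1BB ligand, read 274 in CD103+ Th1 against 993 in Th1, 3.63-fold lower, so receptor and ligand genes of this pair were both lower in CD103+ Th1. Cd70, the CD27 ligand, read 7.34 and 143, at least 1.82-fold lower, opposite to its receptor. Tnfsf4, the OX40 ligand, was 1.56-fold lower (259 against 404). Lta, which encodes lymphotoxin-α, read 6035 and 9636 (log2 ratio -0.68), and Tnf 1227 and 1350 (log2 ratio -0.14). Fasl read 1100 and 1137, 1.03-fold lower, beside a Fas receptor signal that was 1.55-fold higher. Tnfsf10, which encodes TRAIL, was the exception. Its 3 probe sets had log2 ratios from 1.18 to 3.30, with signals of 1873 and 268 on the brightest, while its receptor gene Tnfrsf10b stayed close to the floor. Tnfsf18 and Tnfsf15 were not analysed here.

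**Figure D3:**
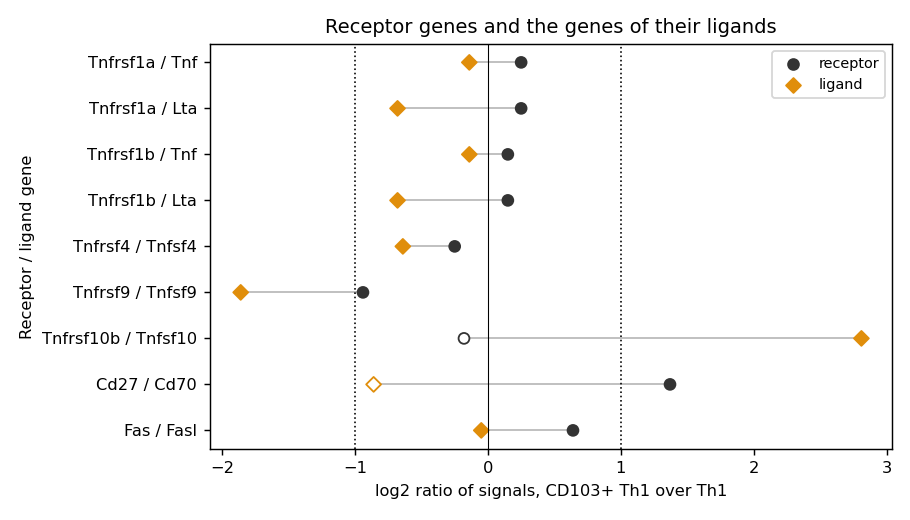
The log2 ratio of signals (CD103+ Th1 over Th1) of each receptor gene (circles) and of the gene of its ligand (diamonds), 1 row per pair, with open symbols for bounds and dotted lines at 2-fold. Both symbols lie below 0 for Tnfrsf9 and Tnfsf9 (-0.94 and -1.86), and on opposite sides for Cd27 and Cd70 (1.37 and -0.86).

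Receptors of the superfamily outside these 10 genes were mostly dim. Of 18 further receptor genes, 10 lay under the floor on both arrays, among them Ltbr and Tnfrsf14, and 8 were measured. Of these 8, 2 were higher by 2-fold or more and 0 lower by as much (median log2 ratio 0.64). Cd40, best known as the B cell and dendritic cell receptor for CD40 ligand, had the highest ratio. Its signals were 701 in CD103+ Th1 and 28.5 in Th1 on the brightest probe set, at least 8.93-fold higher, and the log2 ratios of its 3 probe sets, all bounds, ran from 2.35 to 3.16. Tnfrsf13b, which encodes TACI, a receptor for BAFF and APRIL, read 3944 and 1762, 2.24-fold higher. Tnfrsf13c, which encodes the BAFF receptor, read 199 and 107, 1.86-fold higher. Tnfrsf22, a receptor without a death domain that binds TRAIL, was lower, at 87.5 against 167 on the probe set that stands for the gene (1.91-fold) and 54.9 against 182 on another (at least 2.32-fold). All 3 receptors with the higher ratios are known from B cells, and the B cell markers Cd79a, Ms4a1 and Pax5 lay under the floor on both arrays, with Cd22 at 99.0 and 81.9. The summed signal of the 4 B cell markers was 181 in CD103+ Th1 and 235 in Th1. This sum includes the markers under the floor, so its difference is not read as a result. Cd22, the only 1 measured, had a log2 ratio of 0.27. Of 5 B cell and MHC class II genes outside that list, looked up after their values were known, 4 were higher in CD103+ Th1 and 1 was lower on the brightest probe set. Ighm read 7712 and 2443, with measured probe sets from -0.53 to 1.84 on the log2 scale, and Cd79b read 244 and 75.8. The class II genes H2-Aa and Cd74 read 798 and 58.5 (at least 10.2-fold higher) and 526 and 207, whereas H2-Ab1 read 1423 and 3043. The 6 myeloid markers, of which 3 were measured, summed to 321 in CD103+ Th1 and 645 in Th1. The 3 dendritic cell markers summed to 230 and 170, with 2 above the floor in CD103+ Th1 only and 1 in Th1 only. Their ratios were all bounds, with a median log2 ratio of 0.01, so these sums are not read as a difference. Of 2 NK cell markers, 0 were measured. The part of other cell types in the Cd40, Tnfrsf13b and Tnfrsf13c signals was not tested.

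The genes that carry the signal inward come next. Of 16 adaptor and caspase genes measured, 1 was higher by 2-fold or more and 0 lower by as much (median log2 ratio 0.19). Map3k14, which encodes the kinase NIK of the alternative NF-κB pathway, stood at the threshold, with signals of 375 and 184 (2.03-fold higher) and a second probe set at a log2 ratio of 0.50. With the mean of both probe sets, after quantile normalization and with a pseudocount, Map3k14 was under 2-fold, and with the higher floor it gave no ratio. Traf6 was 1.73-fold higher, Tank 1.54-fold on its brightest probe set, with another at -0.44 on the log2 scale, and Traf5 1.49-fold. Casp8, the initiator caspase of the death receptors, read 7058 and 9229, and Fadd 548 and 423, both under 1.5-fold. Among 13 measured genes of NF-κB and its control, 2 were higher by 2-fold or more and 0 lower by as much, 10 had log2 ratios above 0, and the median was 0.45. Nfkbie, which encodes the inhibitor IκBε, was 2.33-fold higher (1605 against 688), and both of its measured probe sets passed 2-fold. Tnfaip3, for the inhibitor A20, was 2.02-fold higher (2055 against 1016), with a dim second probe set at 0.13, and fell short of 2-fold after quantile normalization. Bcl3 was 1.75-fold higher. Bcl2l1, which encodes the survival protein Bcl-xL, was 1.78-fold lower on its brightest probe set and 2.42-fold lower on a dim one (79.1 against 191). With the mean of probe sets, 1 gene of this list was at least 2-fold lower.

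**Figure D4:**
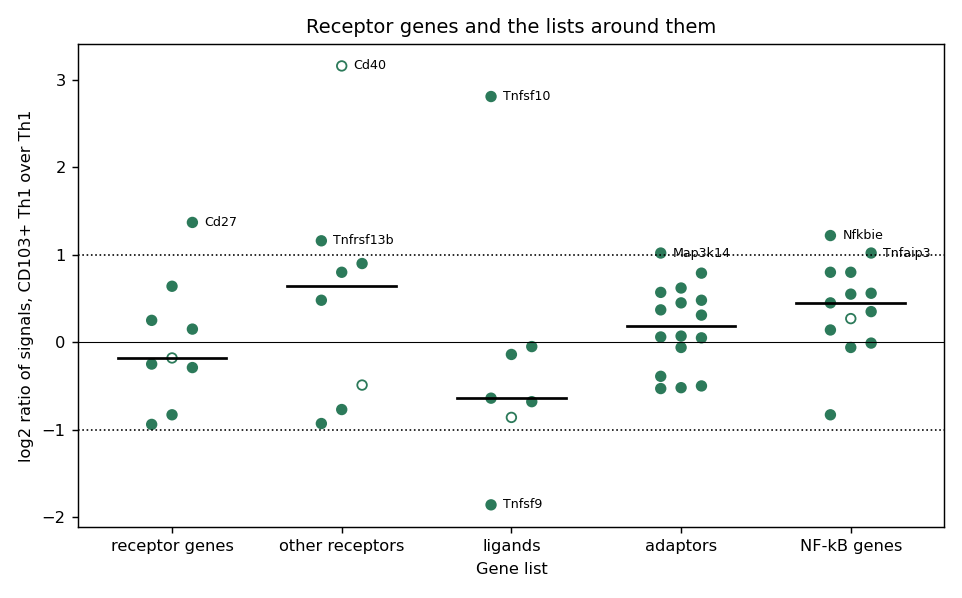
The log2 ratio of signals (CD103+ Th1 over Th1) of each measured gene of 5 lists (1 point per gene, open where 1 array lay under the floor), with the median of each list as a bar and dotted lines at 2-fold. The medians are -0.18 for the receptor genes, 0.64 for other receptors, -0.64 for ligands, 0.19 for adaptors and 0.45 for NF-κB genes, and genes past 2-fold are named. The receptor gene median is the Tnfrsf10b bound.

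Markers of regulatory and of CD8 T cells were higher in CD103+ Th1, as Cd27 was. Of 8 regulatory T cell genes, 7 were higher by 2-fold or more in CD103+ Th1 and 0 lower by as much. Their median log2 ratio was 1.35, and their summed signals were 27458 and 11696. Foxp3 read 1615 in CD103+ Th1 and was under the floor in Th1, at least 20.6-fold higher. Nt5e read 4490 and 270, Gpr83 436 and 65.7, and Izumo1r 2684 and 918. Cd8a read 2054 and 466 on its brightest probe set, and its 5 measured probe sets had log2 ratios from 0.24 to 2.16. Cd8b1 read 1593 and 697. Tnfrsf4 and Tnfrsf18, which are also typical of regulatory T cells, were not higher there, at log2 ratios of -0.25 and -0.29. Of 5 activation markers, 0 differed by 2-fold. Icos, an activation marker like 4-1BB, read 5443 and 8716, and its 3 probe sets lay between -0.77 and -0.67 on the log2 scale, while Cd69 read 1898 and 1759. Il2ra read 7110 and 5344 on its brightest probe set, with another at -0.71 on the log2 scale, and Pdcd1 read 207 and 255. The part of these cell types or of the activation state in the receptor signals was not tested.

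Several of the receptor genes lie near each other in the mouse genome, by their order in the RefSeq gene table. Tnfrsf1b, Tnfrsf4, Tnfrsf9, Tnfrsf18 and Tnfrsf25 are on chromosome 4, with Tnfrsf4 and Tnfrsf18 side by side, and Cd27 and Tnfrsf1a are on chromosome 6, with Ltbr between them. The adjacent genes Tnfrsf4 and Tnfrsf18 had nearly equal log2 ratios (-0.25 and -0.29), as had Sdf4, which overlaps Tnfrsf4 in the gene table (-0.35). Cd27 and Tnfrsf1a differed, at 1.37 and 0.25. Next to Cd27 lies Tapbpl, which encodes the MHC class I peptide editor TAPBPR and read 2388 in CD103+ Th1 and 758 in Th1 (log2 ratio 1.65). Next to Tnfrsf9 lie Park7, which read 6720 and 12024 (log2 ratio -0.84), and Errfi1 at -0.92. On the other side of Tnfrsf9, Per3 was at 0.32. Beside Tnfrsf25, Espn was at -2.06 (172 against 718) and Plekhg5 at 0.26. Beside Fas, Acta2 was at -0.18 and Stambpl1 at -0.11 on 1 side. On the other side lay Lipa, 2 genes away, at 0.54, and Ifit2, 3 genes away and known as an interferon-stimulated gene, at 1.30. Neighbours thus had ratios like those of the receptor in some places and unlike in others.

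**Figure D5:**
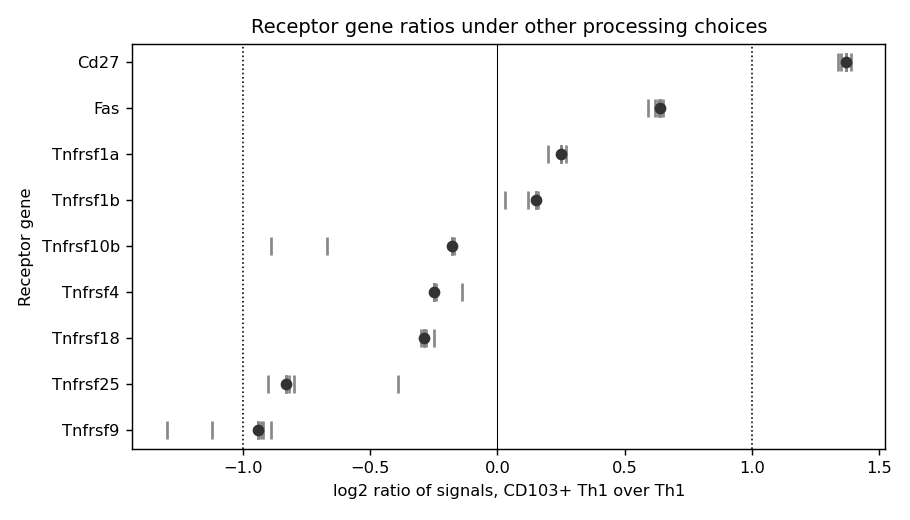
The log2 ratio of signals (CD103+ Th1 over Th1) of each receptor gene as reported (dots) and under each other scaling, floor and probe set choice (ticks), with dotted lines at 2-fold. Every gene keeps its side of 0, though no choice takes the dim Tnfrsf1b probe set (log2 ratio -0.10) on its own. Ticks cross the 2-fold line for Tnfrsf9, and the Tnfrsf10b and Tnfrsf25 values move with the floor.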

How the data were processed

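Per the labels' protocols, Trizol was used to extract the RNA, and an in vitro transcription kit to label it with biotin. The deposited values are signal intensities on a linear scale, 1 for each array and probe set, made by the authors with the GCOS software, per the submitters' processing notes. The scaling target and any filter are not given in the sources used here. Trimmed means (2% at each end) were 498 and 497, so no further scaling was applied.

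Names came from the platform annotation, brought up to date by gene identifier with the RefSeq gene table (GRCm38.p6). Of all 45037 probe sets, 34945 had 1 symbol (34741 in the gene table), 932 several and 9160 none listed. A gene was represented by its brightest measured probe set (mean log2 signal), and ratios were computed in Python 3.11.15 (numpy 2.4.6, pandas 2.3.3) and tested on simulated data. Precision is limited by having 1 array a group.

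The members, gene lists, rules and alternatives were chosen with earlier results of these data known. Named genes were all members, all ligands, up to 4 genes of each further list with the largest absolute ratio, and some of the measured neighbours. Other measured neighbours were left out of the text. Myeloid, dendritic cell and NK cell markers were given as lists without gene names. For T cell markers only Cd3e was taken by that rule. Cd4, Casp8, Fadd, Ltbr, Tnfrsf14 and the genes outside the B cell list were added after their values were seen, as was Itgae. Alternatives were 3 scalings, 2 floors, a pseudocount, 2 probe set choices and thresholds of 1.5-fold and 4-fold. Motifs were chosen after the values were seen; a STAT6 motif was searched first and then dropped, and the interferon element was shortened. Of the 10 genes, 8 matched a RefSeq promoter window.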

Additional observations from a re-analysis of the deposited data

How the results depend on the processing

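The alternatives were 3 scalings, 2 floors, a pseudocount and 2 probe set choices. Under these, each of the 9 receptor genes that could be measured kept its direction, and Cd27 stayed past 2-fold in all 8. For Cd27, with 1 probe set above both floors, only the scalings and the pseudocount could move the ratio. For Tnfrsf1b, no alternative took the dim probe set, at -0.10, on its own. No paired analysis was possible because each group has 1 array, and no replicate could be left out. At 1.5-fold, 2 receptor genes were higher and 2 lower, and 2 probe sets higher and 3 lower. The shares of all measured genes and probe sets past 1.5-fold were not worked out, so these counts are not read as a result. Ratios at least as high as that of Fas were found in 11.1% of measured genes, and ratios as low as that of Tnfrsf25 in 7.09%. At 4-fold, 0 receptor genes and 0 probe sets passed in either direction. The overall shares past 4-fold were not worked out either, so these counts too are not read as a result. With the mean of probe sets, or with probe sets without suffix letters alone, 1 receptor gene, Tnfrsf9, was at least 2-fold lower (log2 ratios -1.12 and -1.30). The median of the receptor genes was -0.05 with the floor at the 75th percentile and -0.25 with the lower floor or a pseudocount. It was 0.20 with probe sets without suffix letters, which leave out Tnfrsf10b, Tnfrsf18 and Tnfrsf25. Of the other receptors, 1 was at least 2-fold higher with the higher floor and with probe sets without suffix letters. With the lower floor 2 of them were at least 2-fold lower and their median was 0.14, and with a pseudocount or the mean of probe sets 1 was lower. Of the ligands, 2 were at least 2-fold lower with the lower floor or a pseudocount, and their median was -0.14 with the higher floor. Of the adaptors, 0 were at least 2-fold higher after quantile normalization, with the higher floor, with a pseudocount or with the mean of probe sets, and their median was 0.07 with the higher floor and 0.31 without suffix letters. Of the NF-κB genes, 1 was at least 2-fold higher after quantile normalization, with the mean of probe sets and without suffix letters, 1 was at least 2-fold lower with the mean of probe sets, and the median was 0.30 with the higher floor. The cause was not tested beyond what each alternative changes by construction. Signals near the floor, as for Tnfrsf10b, limit what can be read.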
